A study of Sus scrofa with 6 samples.

Results

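Long noncoding RNAs (lncRNAs) lying outside every protein-coding gene were followed in porcine cells labelled as spermatogonia and exposed to retinoic acid. The protein-coding gene nearest to each lncRNA was followed with it. The members were the genes that the deposited expression table types as ncRNA, with a length of at least 200 bases, a mean of at least 1 FPKM (fragments scaled to gene length and to the size of the library) over the 6 libraries, and a location overlapping no protein-coding gene on either strand. This gave 253 members among 29884 genes in the table, out of 5917 typed ncRNA, 5572 of sufficient length and 371 that also reached the level. The members were thus chosen by their mean FPKM and their position, and their levels are a description and carry no test. At the edge of the level rule LOC102159649 averaged 1.001 FPKM and was taken, and LOC110262050 averaged 0.999 FPKM and was not.

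The study treated cells labelled as primitive spermatogonia from pig testis in culture. The control group was 3 libraries of cells given the vehicle, 0.1% ethanol, and the RA group was 3 libraries of cells given 2 umol/L all-trans-retinoic acid, the vitamin A derivative that drives spermatogonia toward meiosis in mammals. The labels give no age, breed or treatment time, and no label ties replicate libraries to different animals or cultures. The p-values therefore cover the scatter among these 6 libraries and nothing wider.

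LncRNAs are transcripts without a long reading frame, many of them spliced and polyadenylated. Some begin at the promoter of a coding gene and run away from it, and others act on genes beside them, compete with them for regulatory elements, or have no known function. Retinoic acid binds nuclear receptors (RARA, RARB and RARG) that sit on DNA with RXR partners, and among its long-known targets in mammals are genes of the HOXA cluster, where noncoding transcripts are interspersed with the coding genes.

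The gene type and the name disagreed for some members. Of the 253 members, 211 carried only a LOC number and 42 carried the symbol of a protein-coding gene, among them RARG, EIF3B, SLC7A5, CD99, GSN, EIF4B, CDK6, ITCH and SNRPB. In the RefSeq annotation of the pig assembly Sscrofa11.1, 252 members were typed lncRNA and SNRPE was typed pseudogene. The 42 are therefore given below as genes that the table types as noncoding and that bear a coding gene's symbol, and counts are also given for the 211 alone. The members whose symbol was on the list of lncRNAs known by name in mammals (MALAT1, NEAT1, MEG3 and others) numbered 0. The 211 members with only a LOC number could not match that list, so a known lncRNA among them would be missed. The members named by a LOC number have no assigned role in the files, and none is given to them here.

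Members were short and weakly expressed beside coding genes. Their median length was 1454 bases and their median level was 2.18 FPKM, against 3334 bases and 6.61 FPKM for 13674 protein-coding genes that averaged at least 0.5 FPKM. The 211 LOC-numbered members had a median of 1.89 FPKM and a highest mean of 56.0 FPKM, for LOC100521518. The 42 with a coding gene's symbol had a median of 14.8 FPKM and a highest mean of 207 FPKM, for CD99. A member drew a median of 310.5 reads per library, and the member with the fewest reads had 150 over the 6 libraries together.

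The library totals, recovered from the deposited FPKM values, lengths and read counts of called genes, were 62084199 to 87520891 reads. RA replicate 2 stood apart, with a mean correlation of 0.984 with the other RA libraries, where RA replicates 1 and 3 had 0.991 and 0.989 and the control libraries 0.994 to 0.995. All 10 undifferentiated spermatogonia markers found in the table averaged at least 1 FPKM, and 5 of them fell in RA, with a summed level of 213 to 224 FPKM in control and 168 to 182 FPKM in RA. Of 5 differentiating spermatogonia markers, 1 rose and 1 fell. Over all genes tested, 13.9% rose and 12% fell. The 8 Sertoli cell markers were also all at 1 FPKM or more, summing to 10372 to 10913 FPKM in control and 10145 to 10911 FPKM in RA, with 1 higher and 5 lower. All 5 peritubular myoid cell markers rose, from a sum of 445 to 509 FPKM to 1319 to 1571 FPKM. Of 5 Leydig cell markers tested, 1 rose and 2 fell, and of 4 endothelial cell markers 0 rose and 0 fell. The part of these other cells in the changes below was not tested, and in bulk RNA fewer cells of a type and less RNA per cell cannot be told apart.

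Most members did not pass the test for a change. On log2(FPKM + 1), limma called 25 members higher and 11 lower in RA at an adjusted p under 0.05, which is 36 of 253 or 14.2%, against 25.9% of the 14567 genes tested (13.9% higher and 12% lower). The share was 11.8% among LOC-numbered members, with 16 higher and 9 lower of 211, and 26.2% among those with a coding gene's symbol, with 9 higher and 2 lower of 42. It was 26.7% among the protein-coding genes tested. The median log2 change was 0.04 over the members and -0.01 over all genes tested. The split of called members into 25 higher and 11 lower depended on the processing. It was 21 and 16 after correction for gene length, and 31 and 8 under quantile normalization. Groups did not overlap for 76 members, or 30.0%, against 48% of all genes tested.

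Of the 177 members under 5 FPKM, 14 were called, or 7.91%, against 17.6% of the 4822 genes tested that averaged 1 to 5 FPKM. Of the 76 members at 5 FPKM or more, 22 were called, or 28.9%, against 34.7% of the 7867 genes tested at those levels. A call was thus more common at higher levels among all genes as well as among members. Of the 36 called members, 22 were called whichever library was left out, and the other 14 were lost in at least 1 case. Leaving out control replicate 1, 2 or 3 removed 12, 13 and 12 of the calls, and leaving out RA replicate 1, 2 or 3 removed 12, 2 and 8. In the authors' deposited table of called genes, 37 members appear, 28 higher and 9 lower, each with the sign found by limma, and 32 of them were among the 36. At a pseudocount of 1 a log2 change of 1 or more in size was found for 3 members, LOC106506838, LOC106510642 and RARG, all higher in RA. With a pseudocount of 0.1, LOC110259500 was at -1.43 and LOC106505325 at 1.17.

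**Figure D1:**
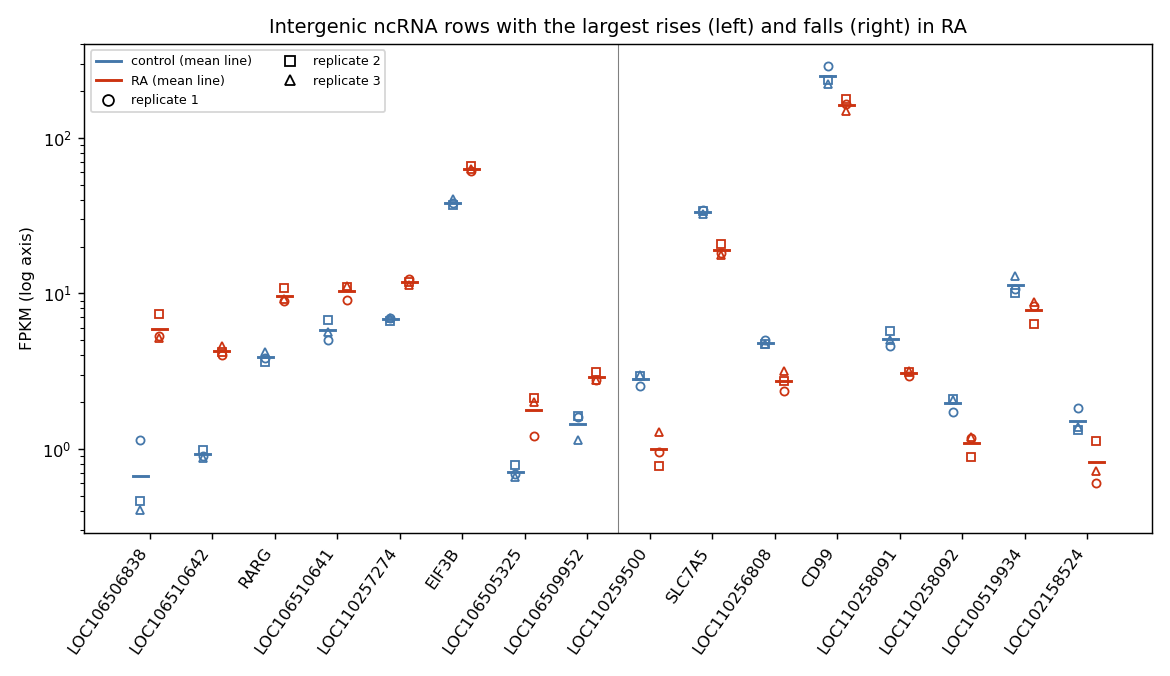
FPKM on a log axis in each library for the 8 members with the largest rises (left of the line) and the 8 with the largest falls (right), among called members whose groups did not overlap. Open symbols are libraries, blue for control and red for RA, and bars are group means. LOC106506838 shows the widest separation, from 0.401 to 1.14 FPKM in control to 5.15 to 7.33 FPKM in RA.

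LOC106506838, on the minus strand of chromosome 18 from 45473363 to 45477416 and 682 bases long when spliced, lies in the HOXA cluster of developmental transcription factor genes, beside HOXA2. It measured 1.14, 0.465 and 0.401 FPKM in control replicates 1, 2 and 3 and 5.29, 7.33 and 5.15 FPKM in RA replicates 1, 2 and 3. The lowest RA library was well above the highest control library, and control replicate 1 stood above the other control libraries. The means were 0.669 ± 0.409 and 5.92 ± 1.22 FPKM (SD, n = 3 each), a ratio of 8.86. The log2 change was 2.07 (SE 0.192, limma adjusted p = 0.000295), smaller than the log2 of that ratio because of the pseudocount of 1, and it held without any single library. It rested on 62, 24 and 17 reads in control and 316, 366 and 224 in RA.

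Its nearest protein-coding gene, HOXA2, ends 17 bases away and was hardly detected, at 0, 0.0305 and 0.00621 FPKM in control and 0.176, 0.158 and 0.0483 FPKM in RA. HOXA2 was below the level tested, so this pair is in no pair count. HOXA2 was nevertheless higher in each RA library than in any control library. This separation rested on 8 reads in RA replicate 3 against 6 in control replicate 2.

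Around LOC106506838, 18 genes within 100000 bases were described, itself included, and for 8 of them the groups did not overlap, all with RA higher. They were LOC106506838, HOXA2 to HOXA6, LOC110257526 and the noncoding LOC110257592. The 8 are 44.4% of the 18, against 48% of all genes tested, in either direction. Most of the 18 were under the level tested, so these shares are not directly comparable. LOC102159438 and LOC106506841 had no reads in any library and could not separate. In control replicates 1, 2 and 3 HOXA6 had 0, 2 and 0 reads, HOXA2 had 0, 6 and 1, and LOC110257592 had 0 in each. In RA replicates 1, 2 and 3 HOXA6 had 12, 17 and 19, HOXA2 had 40, 30 and 8, and LOC110257592 had 8, 15 and 12. The other 10, among them HOXA7, HOXA9, HOXA10, HOXA11 and HOXA13, overlapped between groups, at 0.213 FPKM or less in every library. HOXA4, the only one of the named HOXA genes that was tested, measured 1.54, 0.795 and 0.524 FPKM in control and 2.33, 3.31 and 2.56 FPKM in RA. Its log2 change was 0.96 (SE 0.195, limma adjusted p = 0.0101), and 0.0501 without control replicate 2. The location of HOXA3 spans those of HOXA4, HOXA5 and HOXA6, and on the other strand those of LOC110257526 and LOC110257592. The strand setting of the counting was not given, so reads of all these genes may not be separable.

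**Figure D2:**
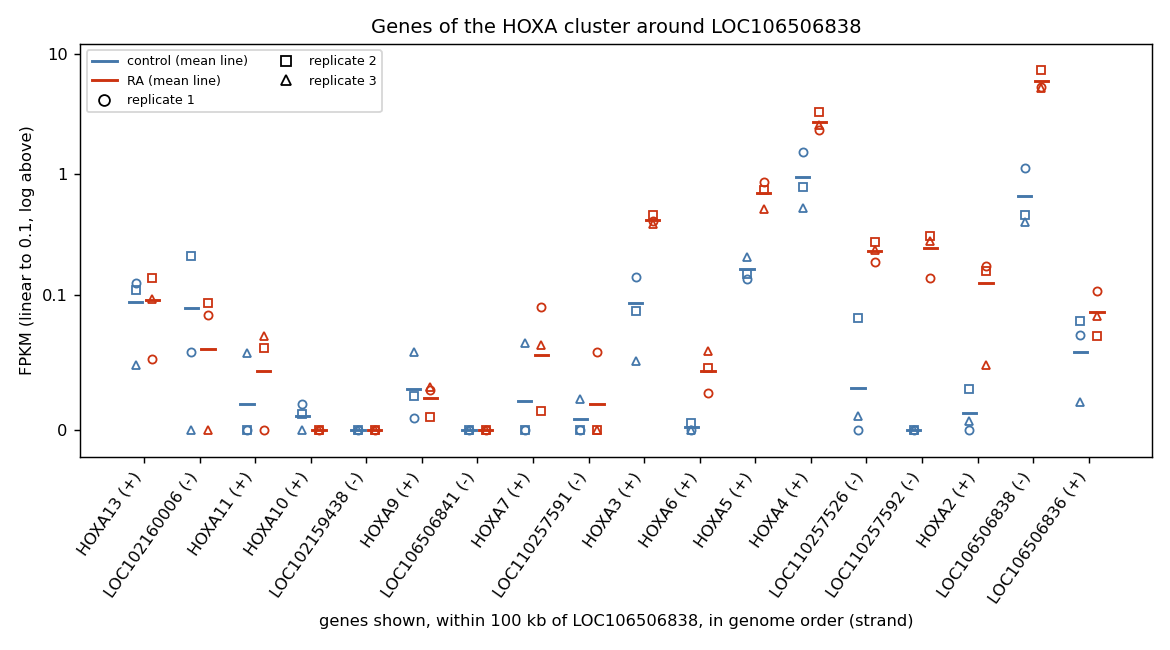
FPKM in each library (linear to 0.1, log above) for 18 genes within 100000 bases of LOC106506838, in genome order with the strand in brackets. Blue is control, red is RA, symbols are replicates and bars are group means. The genes from HOXA3 to LOC106506838 are higher in every RA library than in any control library, while those from HOXA13 to LOC110257591 overlap between groups.

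LOC106510642, on the plus strand of chromosome 6 from 88108583 to 88114948, had 0.905, 0.987 and 0.870 FPKM in control and 4.02, 4.20 and 4.61 FPKM in RA. The libraries of each group were close together and the groups were far apart. Means were 0.921 ± 0.0605 and 4.28 ± 0.304 FPKM (SD, n = 3 each), a ratio of 4.64, and the log2 change was 1.46 (SE 0.0925, limma adjusted p = 4.80e-05).

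It starts 2490 bases beyond the end of TINAGL1, on the same strand. TINAGL1, a matrix glycoprotein of basement membranes, measured 81.4, 73.0 and 70.1 FPKM in control and 426, 439 and 389 FPKM in RA, which is 5.59 times higher (log2 change 2.47, limma adjusted p = 2.16e-06). All RA libraries of TINAGL1 were far above all control libraries. The lncRNA's change was 1.01 smaller on the log2(FPKM + 1) scale (SE 0.115, limma adjusted p = 0.000467), but this scale compresses low levels, and with a pseudocount of 0.1 the adjusted p was 0.0667. On the other side, 24674 bases away, HCRTR1, an orexin receptor, rose from 0.876, 0.640 and 0.336 FPKM to 1.67, 1.67 and 1.5 FPKM (log2 change 0.71, limma adjusted p = 0.00682). TINAGL1, LOC106510642 and HCRTR1 thus all rose. Of the other genes within 100000 bases, COL16A1 rose (log2 change 0.39, limma adjusted p = 0.00586). PEF1 (log2 change 0.05, limma adjusted p = 0.745) and SERINC2 (log2 change -0.10, limma adjusted p = 0.56) were not called. LOC100520618 was below the level tested.

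Another member of chromosome 6, LOC106510641 (plus strand, 87950805 to 87951743), starts 97 bases from the start of FABP3, a fatty acid carrier protein, and runs away from it. LOC106510641 measured 5.04, 6.78 and 5.61 FPKM in control and 9.11, 11 and 11.1 FPKM in RA, means of 5.81 ± 0.885 and 10.4 ± 1.13 FPKM (SD, n = 3 each). FABP3 was abundant, at 1888, 1528 and 1594 FPKM in control and 2532, 2837 and 2645 FPKM in RA. For both genes every RA library exceeded every control library. The log2 changes were 0.75 (SE 0.122, limma adjusted p = 0.00399) for the lncRNA and 0.68 (SE 0.107, limma adjusted p = 0.0034) for FABP3, whose call was lost under quantile normalization (adjusted p = 0.0741). Their difference was 0.07 (SE 0.156, limma adjusted p = 0.781), which under quantile normalization was 0.55 with an adjusted p of 0.0114.

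LOC110257274 (chromosome 16, minus strand, 72791450 to 72796322) starts 131 bases from SEMA5A, which encodes a membrane-bound guidance molecule, in the same head-to-head arrangement. It measured 6.94, 6.64 and 6.92 FPKM in control and 12.4, 11.8 and 11.3 FPKM in RA, a ratio of 1.73 (log2 change 0.71, SE 0.0757, limma adjusted p = 0.000569). SEMA5A had 1.06, 0.982 and 1.01 FPKM in control and 0.884, 0.448 and 0.900 FPKM in RA (log2 change -0.22, SE 0.121, limma adjusted p = 0.207). Here the lncRNA separated cleanly and every RA value of the neighbour was under every control value, RA replicate 2 most of all. The difference of the changes was 0.93 (SE 0.145, limma adjusted p = 0.00218), and it was called without any single library.

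LOC106509952 (chromosome 4, minus strand, 12188207 to 12409059) spans a long locus whose near end is 46081 bases from MYC, the growth-promoting transcription factor. It measured 1.59, 1.63 and 1.14 FPKM in control and 2.79, 3.13 and 2.76 FPKM in RA, a ratio of 1.99 (log2 change 0.67, SE 0.112, limma adjusted p = 0.00443). MYC had 100, 95.8 and 96.1 FPKM in control and 92.5, 90.4 and 92.6 FPKM in RA (log2 change -0.08, SE 0.0538, limma adjusted p = 0.275). The lncRNA was higher in every RA library, and MYC was slightly lower in each. The changes differed by 0.75 (SE 0.113, limma adjusted p = 0.00178), called without any single library.

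LOC106505325 (chromosome 11, minus strand, 60626778 to 60629100) had 0.693, 0.789 and 0.661 FPKM in control and 1.21, 2.13 and 2.00 FPKM in RA, RA replicate 1 being the lowest of its group (log2 change 0.68, SE 0.141, limma adjusted p = 0.0107). Its nearest coding gene, GPC5, a glypican 161899 bases away, was at most 0.0733 FPKM in every library and was not tested.

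Among the members with a coding gene's symbol, RARG, a retinoic acid receptor, rose the most. The RARG model (chromosome 5, minus strand, 18436267 to 18458625) measured 3.84, 3.62 and 4.22 FPKM in control and 8.92, 10.8 and 9.19 FPKM in RA, with no overlap and a ratio of 2.47 (log2 change 1.12, SE 0.101, limma adjusted p = 0.000261). It was the only member on a list of 30 genes of retinoid response, of which 28 were found, and none of the members' nearest genes was on it. Of the 26 of that list tested, 13 rose and 3 fell. The nearest gene to RARG is ITGB7, an integrin subunit, 1890 bases away, with 0.737, 0.490 and 0.457 FPKM in control and 1.06, 1.16 and 0.880 FPKM in RA (log2 change 0.38, limma adjusted p = 0.0313). The ITGB7 call was lost when control replicate 2 or 3 (adjusted p = 0.113 each) or RA replicate 1 (0.0859) or 2 (0.0518) was left out. RARG changed by 0.73 more than ITGB7 (limma adjusted p = 0.00564), and with a pseudocount of 0.1 the adjusted p was 0.168.

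EIF3B, a translation initiation factor subunit, went from 37.9, 37.1 and 40.2 FPKM to 61.2, 65.9 and 62.9 FPKM (log2 change 0.71, limma adjusted p = 0.000218). SLC7A5, the light chain of a large neutral amino acid transporter, fell from 34.6, 34.0 and 32.2 FPKM to 18.2, 20.8 and 17.7 FPKM (log2 change -0.80, limma adjusted p = 0.000352). CD99, a surface glycoprotein, fell from 289, 237 and 222 FPKM to 165, 178 and 150 FPKM (log2 change -0.60, limma adjusted p = 0.00678). None of the 3 overlapped between groups. CD99 is placed on chromosome Y in this table. In some mammals it lies in the region that X and Y share, so reads of another copy could have been split from it.

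The other members of highest level also bore coding symbols. GSN, an actin-severing protein, averaged 183 FPKM and rose by 0.36 on the log2 scale (limma adjusted p = 0.00963). ISYNA1, an enzyme of inositol synthesis, averaged 177 FPKM and rose by 0.61 (limma adjusted p = 0.00313). EIF4B, at 173 FPKM, and SEM1, at 136 FPKM, had log2 changes of 0.02 and 0.00 (limma adjusted p = 0.831 and 0.998). SEM1 and SNRPE are short models of 429 and 466 bases and may share reads with other copies.

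LOC110259500 (chromosome 2, plus strand, 140504465 to 140511779) had the largest fall. It measured 2.55, 2.93 and 2.99 FPKM in control and 0.951, 0.772 and 1.29 FPKM in RA, so that the highest RA library was below the lowest control library. Means were 2.82 ± 0.240 and 1.004 ± 0.262 FPKM (SD, n = 3 each), 2.81 times lower in RA (log2 change -0.94, SE 0.120, limma adjusted p = 0.00132). Its start lies 84 bases from that of ETF1, the factor that ends translation at stop codons, and the 2 run apart. ETF1 had 30.5, 34.4 and 35.0 FPKM in control and 37.6, 24.6 and 37.4 FPKM in RA (log2 change -0.03, SE 0.158, limma adjusted p = 0.909). The ETF1 groups overlapped, with RA replicate 2 lowest and the other RA libraries highest. The difference of the changes was -0.91 (SE 0.134, limma adjusted p = 0.00168), called without any single library. HSPA9, a mitochondrial chaperone on the other side, had a log2 change of -0.08 (limma adjusted p = 0.358).

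LOC110256808 (chromosome 14, plus strand, 81686931 to 81699060) fell together with its neighbour. It measured 5.03, 4.70 and 4.73 FPKM in control and 2.36, 2.73 and 3.15 FPKM in RA (log2 change -0.64, SE 0.106, limma adjusted p = 0.00427). ZCCHC24, a zinc finger protein gene whose end faces it at 359 bases, went from 21.3, 24.4 and 20.4 FPKM to 12.5, 11.4 and 12.8 FPKM (log2 change -0.80, SE 0.0882, limma adjusted p = 0.000682). Neither overlapped between groups, and the changes differed by 0.16 (SE 0.133, limma adjusted p = 0.403).

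LOC110258091 and LOC110258092, on the same unplaced scaffold, lie on either side of NACC2, a transcriptional repressor. LOC110258091 starts 666 bases from the start of NACC2 and fell from 4.58, 5.72 and 5 FPKM to 2.96, 3.12 and 3.15 FPKM (log2 change -0.58, SE 0.101, limma adjusted p = 0.00527). LOC110258092 ends 283 bases from the end of NACC2 and fell from 1.73, 2.09 and 2.07 FPKM to 1.18, 0.885 and 1.20 FPKM (log2 change -0.51, SE 0.105, limma adjusted p = 0.0108). Without control replicate 2 its adjusted p was 0.0511. NACC2 itself fell from 15, 16.5 and 14.5 FPKM to 11.6, 11.4 and 10.8 FPKM (log2 change -0.41, limma adjusted p = 0.00722). All 3 genes were lower in each RA library than in any control library.

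The remaining falls named by the same rule passed the threshold narrowly. LOC100519934 measured 10.7, 10.1 and 13.0 FPKM in control and 8.25, 6.35 and 8.77 FPKM in RA (log2 change -0.49, limma adjusted p = 0.0344). Its call was lost without control replicate 1 (0.0787), 2 (0.0633) or 3 (0.120) or RA replicate 1 (0.0636), and in edgeR (0.0535), while its log2 change without each library ran from -0.57 to -0.36. LOC102158524 measured 1.84, 1.32 and 1.38 FPKM in control and 0.602, 1.13 and 0.724 FPKM in RA (log2 change -0.47, limma adjusted p = 0.039). Its call held without RA replicate 2 and was lost without any other library (0.0763 to 0.116), and in edgeR (0.0655), with log2 changes of -0.59 to -0.38 without each library. SIMC1, a SUMO-binding protein gene with its start 3719 bases away, fell by 0.56 (limma adjusted p = 0.00509).

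A nearest protein-coding gene existed for 246 members, since the other 7 lie on scaffolds with none. The nearest genes were 241 different genes, 5 of which served 2 members each. The gap had a median of 6300.5 bases and ran from 11 to 1141060 bases. It was at most 1000 bases for 79 members, up to 5000 for 40, up to 20000 for 52, up to 100000 for 60 and longer for 15. Start sites faced apart in 102 pairs, 62 of these with a gap of at most 1000 bases. The member lay downstream of its neighbour on the same strand in 53 pairs and upstream in 49, and the ends faced each other in 42.

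The nearest gene was expressed enough to be tested for 202 members, which gave 198 different genes. Of these, 35 rose and 31 fell, or 33.3%, against 25.9% of all genes tested and 26.7% of the protein-coding genes tested. These shares were not matched for level, and calls were more common at higher levels. The median log2 change of the nearest genes was -0.03. The 2 members of a pair changed in the same direction, called or not, in 116 of 202 pairs. That is 57.4%, against 59.2% of 8767 pairs formed in the same way from every gene that overlaps no coding gene and is tested together with its nearest coding gene. Both were called in 17 pairs, 14 in the same direction and 3 in opposite directions. Over the 8767 pairs the shares were 5.84% and 2.5%. In 120 pairs neither was called, in 51 only the coding gene and in 14 only the lncRNA.

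**Figure D3:**
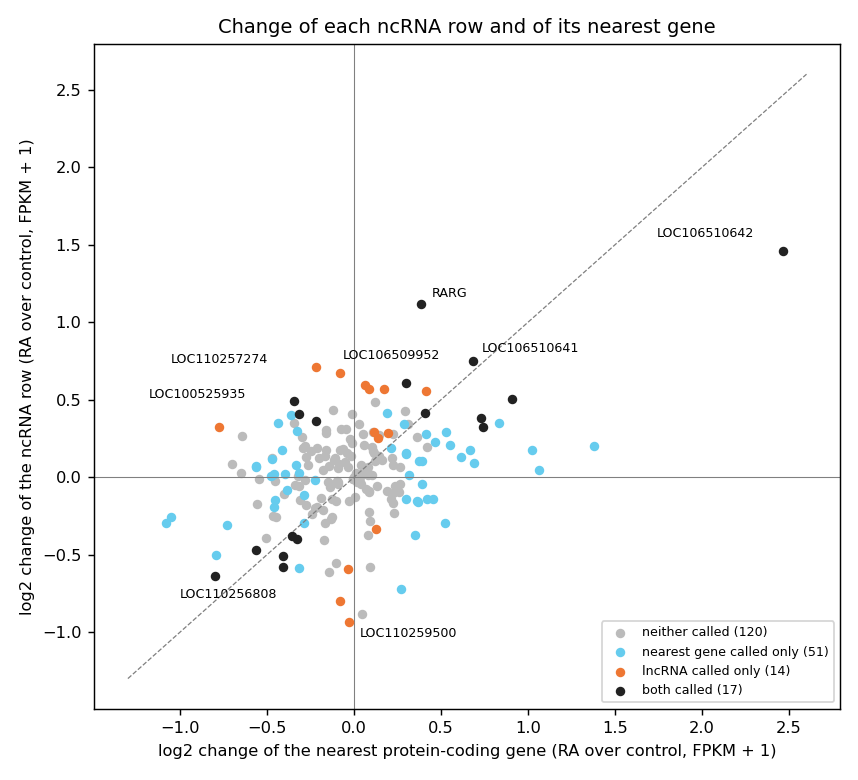
Log2 change of each member (y axis) against that of its nearest coding gene (x axis) for the 202 tested pairs, RA over control on FPKM + 1, coloured by which of the 2 was called. The dashed line marks equal change. Most points lie near the origin, and LOC106510642 with TINAGL1 stands alone at the upper right.

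Across the 202 pairs the changes had a Pearson r of 0.38 and a Spearman rho of 0.28, against 0.24 and 0.26 over the 8767 pairs. Without LOC106510642 and TINAGL1, r was 0.29 and rho 0.27. These describe the pairs only, because all points come from the same 6 libraries and 4 coding genes enter more than once.

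The share of pairs with the same direction was also taken by distance and by orientation. The same direction was found in 46 of 76 pairs with a gap of at most 1000 bases (60.5%, against 59.4% of all 8767 pairs at that distance), in 19 of 33 up to 5000 bases (57.6% against 59.5%), in 20 of 38 up to 20000 bases (52.6% against 58.2%) and in 27 of 48 up to 100000 bases (56.3% against 60.6%). Where start sites faced apart within 1000 bases, 36 of 62 pairs moved the same way, 58.1% against 61.5%. In that arrangement 4 of 62 pairs were called in the same direction and 0 in opposite directions, against 61 and 7 of 1134 over all genes. Members downstream of their neighbour on the same strand had the highest share, 29 of 41 or 70.7%, against 59.6%. With a gap of at most 5000 bases the share in that arrangement was 7 of 12, or 58.3% against 59.8%. At any gap, members upstream on the same strand had 21 of 40, or 52.5% against 58.8%. Those with ends facing had 18 of 33, or 54.5% against 57.0%. All 3 pairs called in opposite directions had their ends facing each other, an arrangement that held 78 of the 219 such pairs over all genes.

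The other pairs with small gaps in which both genes were called are given by their sizes of change. LOC106507710, whose end faces that of NFKBIA, the inhibitor of NF-kappa-B, at 89 bases, had 1.02, 0.924 and 1.03 FPKM in control and 1.47, 1.42 and 1.58 FPKM in RA. NFKBIA had 84.0, 78.9 and 76.9 FPKM in control and 143, 139 and 121 FPKM in RA. Neither overlapped between groups, and the log2 changes were 0.32 (limma adjusted p = 0.0267) and 0.74 (0.000549). The lncRNA's call held without RA replicate 2 and was lost without any other library (0.0656 to 0.100). The difference of -0.42 (limma adjusted p = 0.0288) had an adjusted p of 0.316 with a pseudocount of 0.1 and 0.558 after correction for length.

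LOC100627892 starts 160 bases from SLC3A2, the heavy chain that pairs with SLC7A5 and other amino acid transporters, and runs away from it. It measured 4.18, 5.19 and 5.08 FPKM in control and 6.20, 6.69 and 6.73 FPKM in RA (log2 change 0.38, limma adjusted p = 0.0292), and its call too held only without RA replicate 2 (0.0592 to 0.0875 without the others, and 0.09 after correction for length). SLC3A2 rose from 66.3, 65.7 and 67.5 FPKM to 108, 124 and 102 FPKM (log2 change 0.73, limma adjusted p = 0.00063), while SLC7A5 fell as given above. LOC100516649, with its start 135 bases from that of NABP1, a single-stranded DNA binding protein gene, went from 2.73, 2.87 and 3.08 FPKM to 1.85, 2.27 and 1.75 FPKM (log2 change -0.40, limma adjusted p = 0.027, and 0.0601 to 0.100 without any library other than RA replicate 2). NABP1 had a log2 change of -0.33 (limma adjusted p = 0.0489), which was lost without any control library (0.125 to 0.128) or RA replicate 1 (0.110) and in edgeR (0.087). In both pairs the groups did not overlap for either gene.

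ISYNA1 and SSBP4, a single-stranded DNA binding protein gene, end 239 bases apart. SSBP4 rose from 42.4, 40.5 and 41.5 FPKM to 49.3, 57.9 and 46.9 FPKM (log2 change 0.30, limma adjusted p = 0.0375). It did not pass the threshold without control replicate 1 (0.0854), 2 (0.127) or 3 (0.106) or RA replicate 1 (0.0702).

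The pairs called in opposite directions were LOC100525935 with PRSS12, GSN with STOM and SNRPE with ANXA2. LOC100525935 (chromosome 8, minus strand, 105197311 to 105198419) ends 168 bases from the end of PRSS12, a secreted serine protease gene. It rose from 33.2, 34.5 and 35.8 FPKM to 47.8, 51.1 and 47.6 FPKM (log2 change 0.49, SE 0.062, limma adjusted p = 0.00128). PRSS12 went from 2.70, 2.36 and 2.55 FPKM to 1.78, 1.54 and 2.04 FPKM (log2 change -0.35, limma adjusted p = 0.0441). Both separated, in opposite senses, and the difference of 0.84 was called without any single library (limma adjusted p = 0.00192). The PRSS12 call itself held only without RA replicate 3 (0.0593 to 0.125 without the others). STOM, a membrane protein gene 7238 bases from GSN, had a log2 change of -0.22 (limma adjusted p = 0.033), lost without any control library (0.0605 to 0.119) or RA replicate 1 (0.086). SNRPE rose from 36.9, 35.1 and 37.9 FPKM to 45.6, 49.8 and 51.7 FPKM (log2 change 0.41, limma adjusted p = 0.00454). ANXA2, a membrane-binding annexin gene 146719 bases away, went from 535, 507 and 566 FPKM to 426, 449 and 412 FPKM (log2 change -0.32, limma adjusted p = 0.0147). The ANXA2 call was lost without control replicate 1 (0.0532) or 3 (0.0645) or RA replicate 1 (0.0582).

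The other 14 called members, 12 higher and 2 lower, ranked below the 8 largest rises and falls, and those described here were chosen after their values were seen. MRPS12, a mitochondrial ribosomal protein, went from 9.75, 10 and 10.5 FPKM to 15.3, 18.2 and 14.1 FPKM (log2 change 0.60, limma adjusted p = 0.00442). SARS2, the mitochondrial seryl-tRNA synthetase, starts 124 bases from it in the opposite direction and had 6.23, 6.62 and 5.19 FPKM in control and 6.94, 7.18 and 4.97 FPKM in RA (log2 change 0.06, limma adjusted p = 0.773). The MRPS12 groups were separate and the SARS2 groups overlapped.

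MARC2, an amidoxime-reducing enzyme, rose from 6.64, 8.44 and 8.06 FPKM to 11.1, 11.7 and 11.1 FPKM (log2 change 0.50, limma adjusted p = 0.00844). C10H1orf115, 29009 bases away, rose from 15, 15.5 and 14.5 FPKM to 28.7, 31.0 and 27.3 FPKM (log2 change 0.91, limma adjusted p = 0.000133). LOC106508574, 11095 bases from PTMA, the gene of prothymosin alpha, went from 1.38, 1.62 and 1.39 FPKM to 2.38, 2.45 and 2.01 FPKM (log2 change 0.41, limma adjusted p = 0.0202), and PTMA from 184, 186 and 187 FPKM to 242, 269 and 232 FPKM (0.41, limma adjusted p = 0.0046). Each of these 4 genes was higher in every RA library than in any control library. The call of LOC106508574 was lost when control replicate 1 (0.0698) or 3 (0.0793) or RA replicate 1 (0.0696) was left out.

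LOC110256489, 40021 bases from ETS2, a transcription factor gene, measured 1.04, 1.43 and 1.35 FPKM in control and 0.731, 0.588 and 0.934 FPKM in RA (log2 change -0.38, limma adjusted p = 0.0431). Its call was lost when control replicate 2 (0.146) or 3 (0.130) or RA replicate 1 (0.106) or 2 (0.0699) was left out. ETS2 fell from 50.0, 46.8 and 44.7 FPKM to 35.0, 36.2 and 38.4 FPKM (log2 change -0.36, limma adjusted p = 0.00745). Both were lower in each RA library.

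The changes of the 2 genes of a pair were also compared directly. They differed in 42 of 202 pairs (20.8%), against 28.4% of the 8767 pairs, which were not matched for level. The member's change was the more positive in 23 and the less positive in 19. The share was 29 of 167 pairs (17.4%) for LOC-numbered members and 13 of 35 (37.1%) for those with a coding gene's symbol. With a pseudocount of 0.1 the count was 30 in place of 42. Of the 42, 16 were called whichever library was left out.

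**Figure D4:**
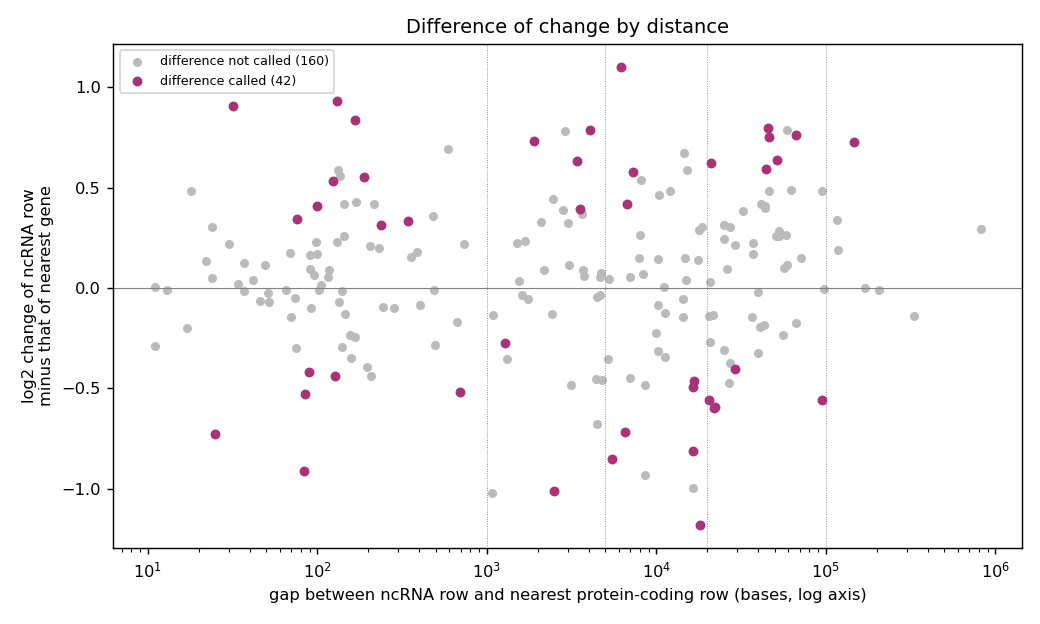
Difference between the log2 change of a member and that of its nearest coding gene (y axis) against the gap between them in bases (log x axis) for the 202 tested pairs, with called differences in purple. Dotted lines mark the distance classes. Called differences lie on both sides of 0 at short and long gaps.

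Several pairs beside well-known genes were looked at after their values were seen. LOC100626264, 18127 bases from DEFB1, a defensin gene, had 4.24, 2.21 and 3.92 FPKM in control and 4.07, 3.72 and 4.24 FPKM in RA (log2 change 0.20, limma adjusted p = 0.442). DEFB1 rose from 0.831, 0.571 and 0.186 FPKM to 3.56, 2.44 and 2.84 FPKM (log2 change 1.38, limma adjusted p = 0.00136). The difference of -1.18 (SE 0.243, limma adjusted p = 0.00791) was the largest called.

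LOC106507125, 16425 bases from CD83, an immune cell surface protein gene, had 1.74, 1.94 and 2.21 FPKM in control and 1.22, 1.38 and 1.66 FPKM in RA (log2 change -0.29, limma adjusted p = 0.0869, and 0.0351 in DESeq2). CD83 rose from 7.32, 6.81 and 7.36 FPKM to 11.2, 10.3 and 10.6 FPKM (log2 change 0.52, limma adjusted p = 0.00274). The difference of -0.81 was called without any single library (limma adjusted p = 0.00336). Beside it, 2 of 6 macrophage markers rose, with a summed level of 17.5 to 20.9 FPKM in control and 24.5 to 37.3 FPKM in RA and with CD163 and PTPRC under 1 FPKM, and their part in the change of CD83 was not tested.

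SOX9, a Sertoli cell transcription factor and the only marker gene of another cell type that was nearest to a member, fell from 52.6, 47.1 and 47.0 FPKM to 37.5, 37.9 and 38.0 FPKM (log2 change -0.36, limma adjusted p = 0.00588). LOC102165993, 66997 bases away, had 4.84, 3.19 and 4.40 FPKM in control and 5.43, 7.47 and 4.59 FPKM in RA (log2 change 0.40, limma adjusted p = 0.141), with overlapping groups. Their difference was 0.76 (limma adjusted p = 0.0115, and 0.0526 without control replicate 2). LOC106504420 ends 24 bases before VEGFA, the vascular growth factor gene, on the same strand. It had 1.04, 1.22 and 1.38 FPKM in control and 1.03, 0.745 and 1.23 FPKM in RA (log2 change -0.15, limma adjusted p = 0.368), while VEGFA fell from 43.1, 42.2 and 36.9 FPKM to 31.2, 27.4 and 29.7 FPKM (log2 change -0.45, limma adjusted p = 0.00611). The difference of these changes did not pass the threshold (limma adjusted p = 0.149), but had an adjusted p of 0.0295 after correction for length.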

How the data were processed

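Total RNA of 6 porcine libraries (3 control, 3 RA, grouped by title and treatment label) was measured. The authors deposited FPKM values for 29884 genes with type, length and coordinates, per the file headers. For the genes they called, the authors also deposited whole read counts in each library beside a log2 fold change, p-value and FDR. The aligner, counting tool, strand setting and genome build were not given in the sources used here. Coordinates are those of the deposited table. 99.3% of its genes have the same coordinates in RefSeq's Sscrofa11.1, which supplied biotypes only.

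Genes averaging at least 0.5 FPKM (14567) were tested on log2(FPKM + 1) with limma 3.58.1 (R 4.3.3, trend, Benjamini-Hochberg over all genes, two-sided, threshold 0.05). The difference within a pair was tested as the log2 value of a gene minus that of its nearest coding gene in each library, over 8767 pairs. Whole reads were recovered from FPKM, length and library total (over 99.8% of nonzero values within 0.05 of a whole number in every library, with 42 genes left out, 2 of them members), and edgeR 4.0.16 and DESeq2 1.42.0 were run on them as alternatives. On these reads edgeR called 28 members, all among limma's 36, and DESeq2 45, 35 of them among the 36. They called 25.1% and 30.5% of all genes. Other alternatives were pseudocount, low-level filter, scaling, length correction, replicate block, leaving out each library, and other definitions of the pair. Scripts were tested on simulated data.

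Named members are the 8 largest rises and 8 largest falls among called members without overlap, the 5 highest levels, and pairs called within 5000 bases (at most 8). Members, lists and tests were chosen with earlier results of these data known. No sequence is shown, and results for some genes are not reported here.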

Additional observations from a re-analysis of the deposited data

How the results depend on the processing

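Some counts moved by more than 1.5 times under the settings given here, and none did under other pseudocounts, scalings, length correction, edgeR, DESeq2 or other definitions of the nearest gene. With no filter on low values, which tests more genes, 6 lncRNAs were lower and 6 pairs were called in the same direction, in place of 11 and 14. Requiring 2 FPKM, which leaves fewer members, gave 7 lower lncRNAs, 20 higher and 17 lower nearest genes, 64 pairs with the same direction and 9 called so. Pairs within 10000 bases only, a smaller set, gave 23 higher and 15 lower nearest genes, 73 pairs with the same direction and 26 called differences. The 211 LOC-numbered members alone, an alternative added after seeing the data, gave 16 higher and 1 pair called in opposite directions.

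With replicate number as a block, 19 nearest genes were lower, 9 pairs were called in the same direction and 0 in opposite directions, against 31, 14 and 3. The labels do not say whether same-numbered libraries were paired. Deviations of same-numbered libraries correlated at -0.21, -0.09 and 0.34 for replicates 1, 2 and 3. The recovered read totals fell from replicate 1 to replicate 3 in both groups. These values do not settle whether the libraries were paired.

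Leaving out each library gave 1202 to 2258 genes higher and 1005 to 2256 lower, 18 to 29 lncRNAs higher and 5 to 16 lower, 20 to 35 nearest genes higher and 14 to 33 lower, 109 to 117 pairs with the same direction, 6 to 19 called in the same and 0 to 4 in opposite directions, and 18 to 48 called differences. Fewer libraries were fitted in each case, and the highest gene counts came without RA replicate 2.

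Signs turned only for changes near 0, none of them called, and the cause was not tested. Quantile normalization gave -0.045 for EIF4B, -0.090 for SEM1 and 0.013 for the difference between LOC100516649 and NABP1. Length correction gave 0.0038 for ETF1, -0.15 for SEM1 and -0.052 for the difference between LOC102158524 and SIMC1, which was -0.18 and -0.0087 with pseudocounts of 0.1 and 0.5. Leaving out each library gave EIF4B from -0.0089 to 0.052, ETF1 from -0.13 to 0.17, LOC100626264 from -0.021 to 0.33 and SEM1 from -0.080 to 0.047. It gave the difference between LOC106510641 and FABP3 from -0.11 to 0.23 and that between LOC100516649 and NABP1 from -0.25 to 0.080. Among the calls of named genes lost in other settings, by adjusted p, were LOC100516649 (0.0858), LOC102158524 (0.082) and PRSS12 (0.0777) under quantile normalization, PRSS12 (0.0798) with length correction, and ITGB7 (0.0667), LOC106507710 (0.0689) and LOC100519934 (0.0779) with no filter. NABP1 was lost with pseudocounts of 0.1 (0.0527) and 0.5 (0.0503), under median-ratio scaling (0.054) and with no trend (0.0654). The rank correlation of gene length with log2 change was -0.32 over all genes and -0.11 over members, and -0.01 over members without RA replicate 2. A called member had as few as 17 reads in a library, which limits what can be seen for the weakest.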
